A study of Caenorhabditis elegans with 3 samples.

Results

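The 9 genes listed as encoding the cytosolic (V1) subunits of the vacuolar ATPase of Caenorhabditis elegans were examined for occupancy by PQM-1, out of 19973 nuclear protein-coding genes of the Ensembl annotation of WBcel235, the assembly also called ce11. The members are a list of subunit genes by name, chosen with earlier results of these data known, and all 9 were found in the annotation. Binding was measured by ChIP-seq, in which chromatin precipitated with the protein is sequenced, on whole L4 larvae of both sexes, with 3 libraries from 2 biological replicates of separate biosamples. Every library came from strain OP201, which carries the unc-119 allele tm4063 on linkage group III and the integrated transgene wgIs201, encoding PQM-1 fused at its C-terminal end to GFP and FLAG. The age of the animals is given as unknown, and no group lacking the transgene or grown under another condition was analysed here. The 3 libraries thus form 1 group, and no comparison between conditions and no test of a difference was made. The peaks describe the tagged protein, and in whole larvae strong binding in a few cells and weak binding in many cannot be told apart.

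The vacuolar ATPase is a rotary pump that uses ATP to move protons across membranes. Its cytosolic V1 sector hydrolyses ATP and drives the rotor, and its membrane (V0) sector carries the protons. In worms the pump acidifies lysosomes and the lysosome-related gut granules of the intestine and is abundant in the excretory cell. PQM-1 is a zinc finger transcription factor of the intestine, associated with the GATA-like word TGATAAG upstream of genes that respond to insulin signalling.

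In the optimal peak list, the peaks that passed the authors' reproducibility threshold, 7 of the 9 V1 genes (77.8%) had a PQM-1 summit in the promoter, against 12.8% of all protein-coding genes. Promoters were taken to begin 1000 bp before the annotated start and to end 200 bp after it. The 7 genes were vha-13, vha-12, vha-8, vha-14, vha-9, vha-10 and vha-15, which between them encode subunits A, B, E, D, F, G and H. The remaining members were vha-11, for subunit C, and vha-18, a further gene for subunit H. None of the 7 summit windows, which reach 100 bp to each side of the summit, held TGATAAG. Of all optimal summit windows, which include those outside promoters, 44.1% held it. Over the strongest promoter summits of the 2553 genes with one, the share was 41.3%. A GATA core lay in 2 of the 7 windows, against 84.2% of all optimal windows and 77.6% of the windows of those 2553 genes. This count of cores was not among the planned results. The count of cores was 0 of 7 in windows of 50 bp to each side, against 71.3% of all optimal windows of that size, and 3 of 7 in windows of 200 bp to each side, against 91%, settings chosen after the data were seen.

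The summit windows of 4 V1 promoters are shown so that the presence or absence of these words beside a summit can be read directly: 3 have no core and 1, that of vha-15, has one. The window of the V0 gene vha-6, which holds TGATAAG, is shown for contrast. All are from the RefSeq sequence of WBcel235, 5′ to 3′ along the gene. The windows span chrX:4190715-4190915 on the + strand for vha-12, chrIV:6790566-6790766 on the + strand for vha-8, chrIII:9507879-9508079 on the + strand for vha-14, chrX:2237594-2237794 on the + strand for vha-15 and chrII:11438513-11438713 on the − strand for vha-6. The summit is the middle base. Capitals mark GATA cores, a name used here for AGATAA and its variant AGATAG and likewise for TGATAA and its variant TGATAG. They also mark the longer TGATAAG, which contains a core, and the GA repeat word GAGAGA. Each was sought on both strands, and TCTCTC is the GA repeat word read on the other strand.
vha-12: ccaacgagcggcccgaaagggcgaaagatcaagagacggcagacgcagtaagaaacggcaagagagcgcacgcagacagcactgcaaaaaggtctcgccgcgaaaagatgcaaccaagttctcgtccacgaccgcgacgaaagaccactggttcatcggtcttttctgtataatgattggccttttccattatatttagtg
vha-8: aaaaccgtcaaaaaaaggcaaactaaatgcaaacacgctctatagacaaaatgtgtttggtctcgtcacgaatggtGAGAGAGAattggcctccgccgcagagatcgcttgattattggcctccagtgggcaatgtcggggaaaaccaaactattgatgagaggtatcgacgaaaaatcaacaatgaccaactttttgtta
vha-14: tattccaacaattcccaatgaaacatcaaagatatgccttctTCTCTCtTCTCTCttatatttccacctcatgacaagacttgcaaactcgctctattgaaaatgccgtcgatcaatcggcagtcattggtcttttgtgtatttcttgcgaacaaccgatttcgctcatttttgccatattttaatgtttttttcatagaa
vha-15: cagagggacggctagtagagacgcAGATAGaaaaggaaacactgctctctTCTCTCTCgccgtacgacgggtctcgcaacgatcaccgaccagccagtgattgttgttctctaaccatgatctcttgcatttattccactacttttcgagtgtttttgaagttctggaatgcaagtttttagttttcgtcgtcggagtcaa
vha-6: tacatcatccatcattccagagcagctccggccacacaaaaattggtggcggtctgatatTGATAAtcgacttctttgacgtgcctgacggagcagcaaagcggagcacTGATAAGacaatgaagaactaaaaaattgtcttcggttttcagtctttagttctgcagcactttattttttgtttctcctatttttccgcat

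In these letters, the vha-12 window has no capitals at all, and those of vha-8 and vha-14 have only the GA repeat word. The vha-15 window has 1 core, AGATAG, at −73 bp from the summit, and 2 overlapping GA repeat words at −47 and −45 bp, counted along the gene to the middle of the word. The vha-8 window has 2 overlapping GA repeat words at −21 and −19 bp, and the vha-14 window has 2 separate ones at −55 and −48 bp. Among the windows not printed, that of vha-13 has a core at −96 bp and one at 74 bp, and GA repeat words at −53 and 69 bp. That of vha-9 has a GA repeat word at 27 bp and no core, and that of vha-10 has neither kind of word. A match is a description of the letters and not evidence of a bound base.

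**Figure D1:**
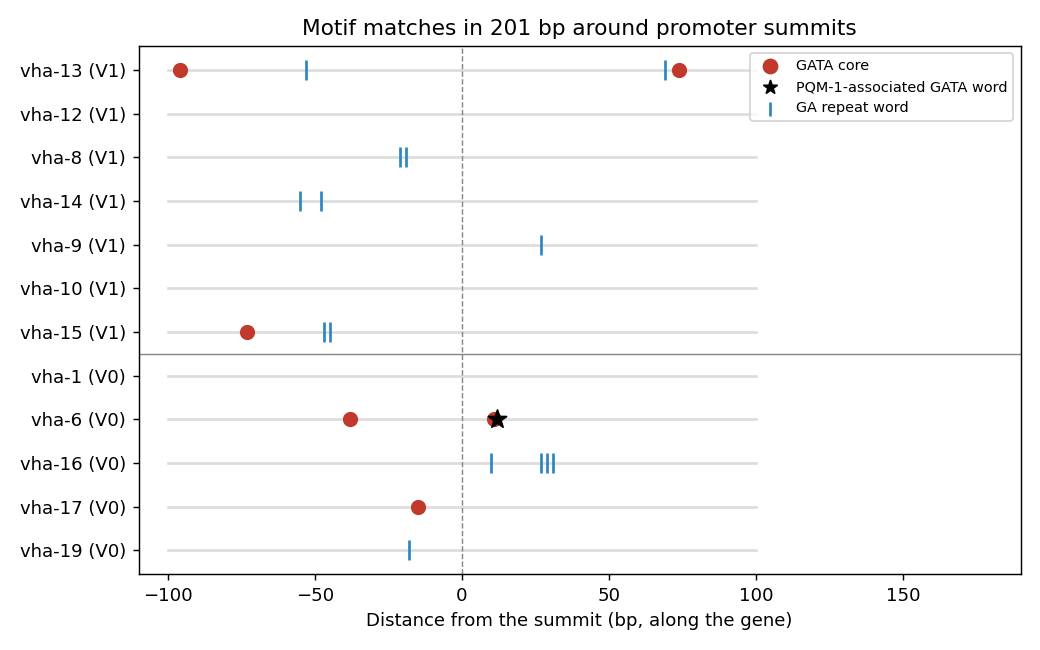
Position of each motif match in base pairs from the summit, along the gene, for the 7 V1 and 5 V0 genes with a promoter summit in the optimal list. Red circles are GATA cores, the black star is the longer word associated with PQM-1 and blue bars are GA repeat words; red circles are on 2 of the 7 V1 lines, and the star is on the vha-6 line.

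The GA repeat word occurred in 5 of the 7 V1 windows, against 26.4% of all optimal windows. The share was 24.7% over the 2553 genes with a promoter summit, and 16.4% of stretches of the same length before every protein-coding start. In the lists described below it was in 2 of 5 V0 windows, 3 of 12 lysosome windows and 1 of 2 nutrient sensing windows. These differences were not tested, and a count of 5 windows was not particular to this word, as a search described below shows. The E-box CACGTG, a word bound by the lysosomal regulator HLH-30, was in 0 of 7 windows, against 6.27% of optimal windows. GTAAACA, a word bound by the forkhead factor DAF-16, was in 0 of 7 windows, against 4.9%. Both of these words are scarce enough that 0 of 7 is close to the background. The GATA core was found in 42.8% and TGATAAG in 7.10% of the stretches before every start, which were taken without regard to binding.

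Distance to the middle of the nearest core describes the same genes without a window edge. From the vha-15 summit it was 73 bp, from vha-13 it was 74 bp and from vha-8 it was 116 bp. The core nearest to the vha-12 summit was 213 bp away, that nearest to vha-9 was 281 bp away and that nearest to vha-10 was 349 bp away. The vha-14 summit was 505 bp from any core. Of all 4739 optimal summits, 2.22% had the nearest core at least as far, with cores sought within 1000 bp. For the other V1 genes this share ran from 4.35% (vha-10) to 19.9% (vha-15). The median over the 7 genes was 213 bp, against 24 bp over all optimal summits.

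The share of windows with a core was higher at higher signal, from 73.9% in the weakest of 5 equal groups of optimal peaks to 95.7% in the strongest. The vha-8 peak belonged to the strongest group, and it was the 14th strongest of the 750 optimal peaks without a core. The vha-14 peak was the 51st and the vha-12 peak the 108th of these 750, whose median signal was 44.3. The vha-10 and vha-9 peaks stood at ranks 158 and 275. The V1 windows had a median of 42.8% G and C, with a range of 36.3% (vha-14) to 52.7% (vha-13). The median was 36.8% for all optimal windows. It was 44.3% for the V0 windows, and 41.3% and 42.0% for the lysosome and nutrient sensing lists described below. A high share of G and C was thus not particular to V1. The part of base composition in the motif counts was not tested.

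A search of all 2080 words of 6 bases, made after the windows had been seen, found 20 words in at least 4 of the 7 windows. The scarcest of these among all optimal windows was AGACCA, or TGGTCT on the other strand, present in vha-12, vha-8, vha-14 and vha-10 and in 6.71% of all optimal windows. AGAGCG was in 4 V1 windows and in 7.55% of all. The word shared by all 7 windows was CAAAAA, which 52.5% of all optimal windows also held. These words were picked for their counts, so the counts support nothing further. The GA repeat word was also one of the 20, in 5 V1 windows and in 26.4% of all optimal windows. Other words of the 20 were in 5 V1 windows too, at lower shares of all optimal windows. These shares ran from 22.5% for TGCAAA to 25.7% for CGAAAA. The count for the GA repeat word was not repeated under the alternative settings.

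The whole promoters of the V1 genes were not without GATA letters. Each of the 9 held at least 1 core, with 1 in vha-10 and 7 in vha-18, and 93.3% of all promoters held one. TGATAAG occurred in the promoters of vha-9, once, at −703 bp and 497 bp from its summit, and of vha-18, with 2 matches, against 23.7% of all promoters. The V1 gene with the most cores and the most TGATAAG words, vha-18, is one of the 2 members with no promoter summit in the optimal list. The other, vha-11, held 2 cores and 0 TGATAAG words.

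The values below come from 4 peak lists. The optimal list held 4739 peaks and was made of the 4739 strongest peaks of the pooled list of 18821. The replicate 1 list held 24037 peaks and the replicate 2 list 19029 after 9 mitochondrial peaks were left out. The pooled and replicate lists were made as input to the reproducibility step and hold background peaks too. The authors' signal value of a peak ran from 31.5 to 350 in the optimal list, from 2.00 to 110 in replicate 1 and from 6.22 to 254 in replicate 2. It is the authors' own value on a scale that differs between lists, so replicates are compared by rank. Peak lists hold no read counts, and the depth of the libraries is unknown here.

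Subunits A and B alternate around the ATP-hydrolysing head of V1. The gene for the catalytic subunit A, vha-13 (WBGene00013025), lies on the + strand of chromosome V at 14351709 to 14354422, and its start is 226 bp from the end of cept-2 on the same strand. Its promoter peak spanned 14350962 to 14351305, with the summit at −575 bp from the start, inside the annotated 3′ UTR of cept-2. The signal was 86.5 in the optimal list, rank 907 of 4739, 30.4 in replicate 1 and 57.6 in replicate 2. Both replicates placed the peak high, at 2.75% of the way down the list of replicate 1 and 5.81% down that of replicate 2, with summits at −547 and −578 bp. This is the V1 promoter summit farthest from its gene, and with promoters cut to 500 bp before and 100 bp after the start it was no longer counted.

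The gene for subunit B, the nucleotide-binding partner of A, is vha-12 (WBGene00006921), on the + strand of chromosome X at 4191094 to 4193144. Its nearest upstream gene, mrp-6, is on the opposite strand and 4337 bp away. The summit lay between the genes at −279 bp, in a peak at 4190643 to 4190986. Its signal was 68.1 in the optimal list, rank 1635, 27.1 in replicate 1 and 42.6 in replicate 2. The ranks were 3.90% down the list of replicate 1 and 11.2% down that of replicate 2, so replicate 1 placed the peak higher.

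Subunits D and F form the central shaft that turns inside the head. The gene for subunit D, vha-14 (WBGene00010130), is on the + strand of chromosome III at 9508100 to 9509757, with sod-4 on the opposite strand 7724 bp upstream. Its summit was the closest to a start among the V1 genes, at −121 bp, in a peak at 9507807 to 9508150. The optimal signal was 81.2, rank 1080, with 26.5 in replicate 1 and 56.9 in replicate 2. Position and rank were close in both replicates, with summits at −127 and −121 bp and ranks 4.18% and 5.99% down the lists.

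Subunit F is encoded by vha-9 (WBGene00006918), which, on the − strand of chromosome II at 10303050 to 10303713, had the weakest of the 7 V1 promoter peaks. Its peak at 10303747 to 10304090 had a signal of 49.5, rank 2782, and its summit at −206 bp. Replicate 2 gave a single peak there, with a signal of 36.6 at −238 bp, 14.1% down its list. Replicate 1 gave a pair of overlapping peaks. One had a signal of 11.2 at 15 bp inside the start, 17.2% down the list, in the promoters of both clpp-1 and vha-9. The other had 9.90 at −199 bp, 19.7% down. The replicates thus differed on the position of the strongest summit by 253 bp, whereas the other 6 V1 genes differed by 6 to 31 bp.

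Subunits E and G build the peripheral stalks that hold the head still. The gene for subunit E, vha-8 (WBGene00006917), on the + strand of chromosome IV at 6791074 to 6792455, had the strongest V1 promoter peak. The peak spanned 6790607 to 6790716 and was only 110 bp wide, as were or narrower 173 of the optimal peaks (3.65%), while 82.0% of them were 344 bp wide. Its summit was at −408 bp, with a signal of 108, rank 468, in the optimal list, 30.3 in replicate 1 and 79.5 in replicate 2. The ranks, 2.79% and 2.39% down the lists, put it near the top of both. The summit lies in the 585 bp between vha-8 and C17H12.2, a gene of the opposite strand whose start is nearer, with the summit at −178 bp from it, and whose promoter also holds the summit. It is the single V1 promoter summit of the optimal list shared with another protein-coding gene's promoter. The share of such summits over all genes is not given here. Which of the genes the summit belongs to cannot be told from the lists.

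Subunit G is encoded by vha-10 (WBGene00006919), which lies on the − strand of chromosome I at 5609341 to 5610270, 103 bp downstream of trpp-8 on the same strand. Its summit at −366 bp fell in a coding exon of trpp-8, in a peak at 5610464 to 5610807. The signal was 59.9 in the optimal list, rank 2091, 20.03 in replicate 1 and 39.9 in replicate 2. The ranks were 7.68% and 12.4% down the lists, with summits at −396 and −369 bp.

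Subunits C and H join the sectors and take part in their reversible assembly, and each has a different pattern of peaks. The gene for subunit H with a peak, vha-15 (WBGene00020507), is on the + strand of chromosome X at 2237911 to 2240255, and T14F9.2 ends 1204 bp upstream. Its peak at 2237522 to 2237865 had its summit at −217 bp and a signal of 62.8, rank 1905, with 21.7 in replicate 1 and 40.1 in replicate 2. The ranks were 6.64% and 12.3% down the lists. A second optimal summit within 5 kb, 2677 bp beyond the gene, lay at −314 bp from rpl-11.2, a ribosomal protein gene. Its signal of 61.4 was close to that of vha-15, and the order of the pair differed between replicates, with 21.0 for the rpl-11.2 summit in replicate 1 and 44.1 in replicate 2.

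The other gene for subunit H, vha-18 (WBGene00018698), on the − strand of chromosome V at 8411775 to 8413482, had no optimal summit within 5 kb, and the nearest lay 7626 bp from the gene. In the pooled list the strongest summit within 5 kb was 4657 bp away, with a signal of 20.6 and rank 6904 of 18821. The promoter held a summit in the replicate 2 list alone, at −470 bp with a signal of 6.71, 90.1% of the way down, and closer to the start of pos-1, on the opposite strand. The pair of H genes therefore differed in these lists, with a promoter summit for vha-15 in all 4 and for vha-18 in 1.

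For subunit C, vha-11 (WBGene00006920), on the − strand of chromosome IV at 2307815 to 2314567, had one optimal summit within 5 kb but outside its promoter. That summit, at 2316958, was −2391 bp from the vha-11 start and had a signal of 105, rank 522, which would place it second among the V1 genes. It had a signal of 38.1 in replicate 1, 1.36% down the list, and 65.9 in replicate 2, 4.09% down. It falls in the 5′ UTR of Y38F2AL.12, at 385 bp from its start. Between it and vha-11 lies vha-3, on the same strand as vha-11 and encoding a proteolipid (c) subunit of the V0 sector, with a gap of 892 bp between vha-3 and vha-11. The summit was at −1013 bp from the vha-3 start, 13 bp beyond the promoter limit, at −1007 bp in replicate 1 and at −993 bp, within the limit, in replicate 2. In the promoter of vha-11 itself the pooled list held a summit at −381 bp with a signal of 8.11, rank 17107 of 18821, which is 90.9% of the way down, and replicate 2 held one at −340 bp with 8.68, 64.5% of the way down.

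**Figure D2:**
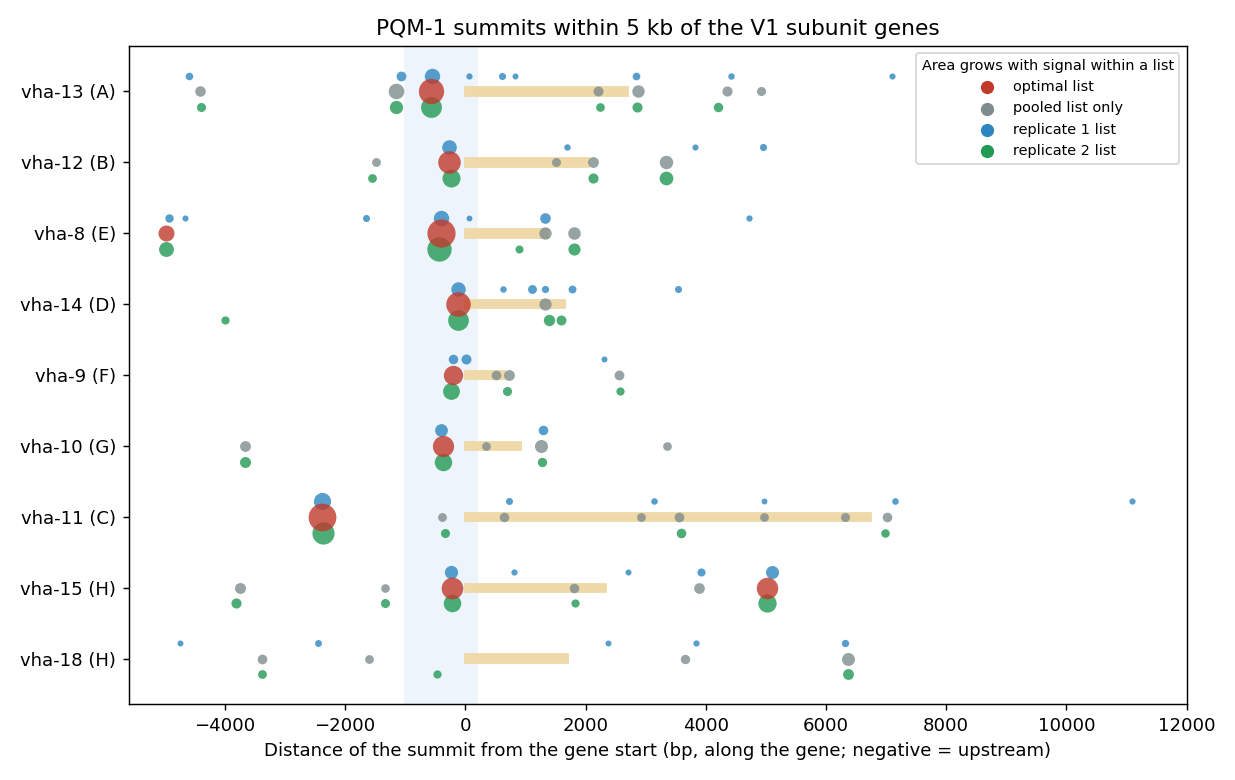
Summits within 5 kb of each V1 gene, by distance from the annotated start in base pairs along the gene, in the optimal, pooled, replicate 1 and replicate 2 lists, with dot area following signal within a list, yellow bars for the genes and a shaded band for the promoter. In the optimal list 7 genes have a summit within 600 bp upstream of the start, vha-11 has one at −2391 bp, vha-18 has none, and vha-8 and vha-15 each have a second one farther away.

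Across the 9 genes the optimal list held 10 summits within 5 kb, 7 of them in the members' promoters and 0 inside the genes. At least 1 such summit was found for 8 of the 9 genes, against 41.7% of all protein-coding genes. The 3 outside the promoters were those near vha-11 and rpl-11.2 and one 4984 bp from vha-8, just within the limit, with a signal of 33.1 and rank 4517, at −818 bp from the dyci-1 start. None of the 3 windows held a GATA core, so 2 of the 10 summits had one. Just outside the limit, the next optimal summit was 7626 bp from vha-18, with a signal of 32.8, and 9893 bp from vha-8, with a signal of 103, and for the other genes it was 12899 bp (vha-13) to 23181 bp (vha-11) away.

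All 7 promoter summits lay upstream of the start and within 600 bp of it. The share of all genes with a summit so placed is not given here. Most of a promoter as defined, from 1000 bp before to 200 bp after the start, is upstream. The median offset was −279 bp, against −203 bp over all genes with a promoter summit. The signals of the 7 summits had a median of 68.1 and a range of 49.5 to 108. Of the 7, 6 were above 55.1, the median of all 2553 genes with a promoter summit. Within that set vha-8 stood at the 90.7 percentile, vha-13 at 82.1 and vha-14 at 78.1. The vha-9 summit, at 41.4, was the one below the median. The member's own start was the nearest for 6 of the 7 summits (85.7%), close to the 83.6% found over all genes with a promoter summit.

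Each promoter summit was the strongest pooled summit within 5 kb of its gene, 7 of 7, against 68.3% of all genes with a promoter summit. For vha-14 it was 4.46 times the next strongest pooled signal within 5 kb, and for vha-9 it was 3.62 times. The ratio was 3.26 for vha-8, 3.02 for vha-12, 2.85 for vha-10 and 2.78 for vha-13. At vha-15, where the rpl-11.2 summit is the next, the ratio of 1.02 leaves the pair level. The next summit at vha-13, at −1152 bp with a pooled signal of 31.2 and rank 4794, was just too weak for the optimal list, whose weakest peak had 31.5.

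The pooled list, background included, held 45 summits within 5 kb of the 9 genes, from 2 to 8 a gene, and 35 of them were not in the optimal list. These 35 had a median signal of 10.6. In the pooled list 12 summits lay inside the genes of 8 members, all weak, with signals of 7.88 to 18.6. A promoter summit was present for 8 of the 9 genes in the pooled list, against 35.2% of all genes, for 7 in the replicate 1 list, against 38%, and for 9 in the replicate 2 list, against 34.8%. The replicate 1 list held 47 summits within 5 kb and the replicate 2 list 36.

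All 7 V1 promoter peaks were overlapped in both replicates, as were 99.2% of all optimal peaks. Their summits differed between replicates by a median of 27 bp, close to the 28 bp of all optimal peaks. They ranked between 2.75% and 17.2% of the way down the list of replicate 1 and between 2.39% and 14.1% down that of replicate 2. All 7 were among the 4739 strongest peaks of each, and the share of all optimal peaks for which this held is not given here. For vha-9 in replicate 1 the rank used, 4141, is that of the peak 15 bp inside the start. The replicate 1 peak at −199 bp had rank 4728. By rank as a percentage of the list, replicate 1 placed 5 of the 7 higher, and it did so for 58.3% of the optimal peaks overlapped in both.

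**Figure D3:**
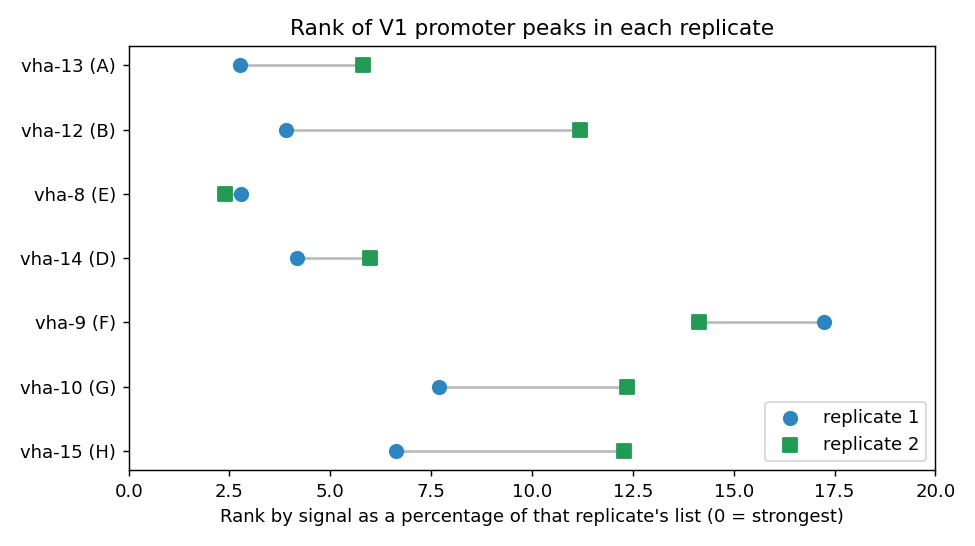
Rank of each of the 7 V1 promoter peaks by signal, as a percentage of the length of each replicate's list, 0 being the strongest. The peak of vha-8 is near 2.5% in both replicates, vha-9 is the lowest in both, and 5 of the 7 rank higher in replicate 1.

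Of the V0 and accessory genes, 5 of 12 (41.7%) had a promoter summit in the optimal list, with a median signal of 54.5. The strongest was at vha-6, the a subunit of the intestinal apical membrane, with a signal of 117 at −161 bp and the TGATAAG word beside its summit. Next came vha-1, a proteolipid subunit, with 78.4 at −405 bp, and vha-19, an accessory subunit, with 54.5 at −293 bp. The vha-1 summit lay in the promoters of 2 genes, with the vha-1 start the nearest. The d subunit gene vha-16 had 46.2 at −183 bp, and the e subunit gene vha-17 had 44.9 at −462 bp, nearer the start of F49C12.12. No promoter summit was found for vha-2, vha-3, vha-4, vha-5, vha-7, unc-32 and vha-20. A GATA core was in 2 of the 5 V0 windows and TGATAAG in 1. The difference between the V1 and V0 counts was not tested.

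Among 17 genes of the lysosome, 12 (70.6%) had a promoter summit, with a median signal of 61.5. The strongest were at haf-9 (220) and haf-4 (93.2), half-transporters of the gut granule membrane, and at nuc-1 (79.5), the lysosomal DNase. A GATA core was in 11 of these 12 windows and TGATAAG in 4, against 2 of 7 and 0 of 7 for V1 at a median signal of 68.1. This difference was not tested. Of 12 genes that sense nutrients at the lysosome, 2 (16.7%) had a promoter summit, near the 12.8% of all genes. They were rheb-1 with 57.6 and raga-1 with 33.3, and both windows held TGATAAG. The rheb-1 summit was nearer the start of spk-1 and lay in the promoters of 2 genes.

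**Figure D4:**
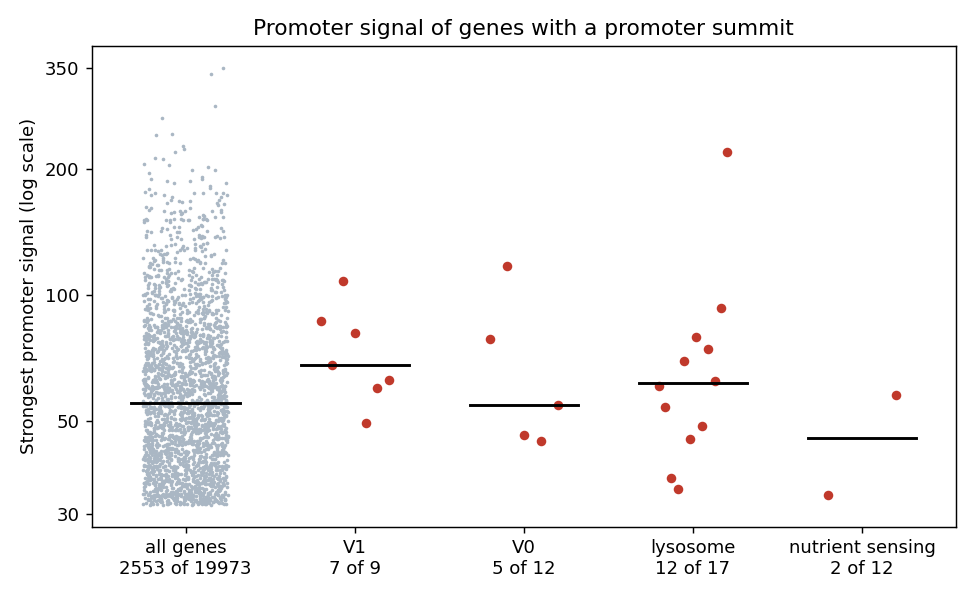
The authors' signal of the strongest promoter summit in the optimal list for each gene that has one, for all 2553 protein-coding genes and for the V1, V0, lysosome and nutrient sensing lists. The 7 V1 genes lie between 49.5 and 108, and the strongest listed gene is haf-9 at 220.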

How the data were processed

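PQM-1 ChIP-seq peak lists deposited by the authors were used as they stood, 4 on ce11; the 4 on ce10 were not used. Per the readmes, they are the optimal list, thresholded by irreproducible discovery rate, and the peaks with background of replicate 1 (both of its libraries in 1 alignment), of replicate 2 and of both pooled. The signal of each peak (column 7) is the authors' own value, made with a control alignment. Aligner, peak caller and cutoff: not given in the sources used here.

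Genes came from Ensembl release 115 and sequence from the RefSeq copy of the same assembly, which gave the same bounds for 8 of the 9 members. Python 3.11.15, numpy 2.4.6 and matplotlib 3.10.9 were used. Each summit was placed by distance to genes and starts, and motifs were sought within 100 bp of it on both strands. The placing of summits was tested on simulated data. Overlap meant at least 1 bp. Replicate peaks were the strongest overlapping ones. With 1 group no test was made: counts and medians stand beside those of all genes or all optimal peaks.

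The members and lists were chosen with earlier results of these data known. Named are all members, genes sharing or nearest their summits, V0 genes, and up to 3 genes by signal of the lysosome and nutrient sensing lists. Alternatives covered the peak list, each replicate left out, summit or midpoint, promoter size, gene start, distance, window and overlap.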

Additional observations from a re-analysis of the deposited data

How the results depend on the processing

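Of 53 alternative values, 44 stayed within 1.5 times the reported count or within the spread allowed for the median. The same 7 V1 genes had a promoter summit with each replicate left out. They also had one with 2 times as many pooled peaks and with promoters from 2000 bp before to 500 bp after the start. The setting with more pooled peaks and that with the longer promoter contain the main one. They could add genes but not lose any, so keeping the 7 there was fixed in advance. With the stronger 50% of the optimal peaks the count was 6, without vha-9, the median V1 signal was 74.6 and the V0 count was 2. With 2 times as many pooled peaks the V0 count was 8, and it was also 8 with the longer promoter. The shorter promoter, which leaves out vha-13, gave a median of 65.4 and 1 window with a GATA core, and windows of 50 bp to each side gave 0. Leaving out a replicate meant using the list of the other, down to a signal of 9.88 in replicate 1 or 22.8 in replicate 2. This gave medians of 26.5 to 42.6, since each list has its own scale. Without replicate 2 the V0 count was 7 and 2 V1 windows held a GATA core. Without replicate 1 the V0 count was 5, with vha-3 counted and vha-16 not, and 3 V1 windows held a core. TGATAAG was in 0 V1 windows under every alternative run. The count of windows with a GATA core was not planned, and its alternatives were chosen after the data were seen. No paired analysis was possible because the libraries form 1 group.

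Limits are the unknown depth and signal scale, the single strain and stage, and whole animals, which leave the tissue unresolved. Annotated worm starts often mark trans-splice sites, so offsets are from annotation and not from transcription starts. Operons were not annotated here. A peak near a gene gives no measure of its expression.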
